A study of Mus musculus with 8 samples.

Results

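Messenger RNA signal of 9 genes of the Polycomb and SWI/SNF chromatin regulators was read from Sca1+Lin- bone marrow cells of Sca1-MALT1 transgenic and wild-type (WT) mice. The genes were Ezh1, Ezh2, Eed, Suz12, Bmi1, Smarca4, Smarca2, Smarcb1 and Arid1a, grouped by their function in these complexes; they were chosen with earlier results of these data known. All probe sets whose platform annotation named one of them as the sole gene were taken, 24 of 45037 probe sets, and each of the 9 genes had at least 1. Total RNA of cells sorted from bone marrow as positive for Sca1 and negative for lineage markers was amplified, and each sample was measured on a 1-colour Affymetrix array, 5 from Sca1-MALT1 and 3 from WT samples. Both groups share the sort, the tissue and the amplification, and the labels give neither age nor sex. The name of the transgene joins Sca1, a gene whose promoter is active in stem and progenitor cells, and the oncogene MALT1. The labels do not state its promoter, and which species or part of MALT1 it carries is not given in the sources used here.

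Polycomb proteins keep genes silent. Polycomb repressive complex 2 (PRC2) methylates a histone through the enzyme EZH2 or its relative EZH1, which work only with the core subunits EED and SUZ12. Polycomb repressive complex 1 (PRC1), of which BMI1 is a subunit, adds ubiquitin to another histone and compacts chromatin. SWI/SNF complexes act against Polycomb by moving nucleosomes, with SMARCA4 (BRG1) or SMARCA2 (BRM) as the motor, SMARCB1 as a core subunit and ARID1A as a subunit that contacts DNA. In blood formation BMI1 is known for the self-renewal of stem cells, EZH2 for early B cell development, and EZH1 for being kept in cells that divide little.

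No member passed the test over all genes. By the brightest probe set of each gene, the lowest values relative to WT were those of Ezh2, Smarca4 and Smarcb1. Their brightest probe sets read 0.509, 0.549 and 0.617 times WT, and all 5 Sca1-MALT1 arrays lay below all 3 WT arrays for each of them. For Smarcb1 the direction rests on the probe set taken. Its dimmest probe set had a log2 difference of 1.19, and the mean of its 3 probe sets gave 0.02. Bmi1 was higher in Sca1-MALT1, at 1.58 times WT with overlapping groups. For Ezh1, Eed, Suz12, Smarca2 and Arid1a the groups overlapped. The test was limma's moderated test on the deposited log2 signal, with Benjamini-Hochberg adjustment over 18193 genes and a threshold of 0.05. The adjusted p-values of the 9 members were 0.118 or more, while 0.0879% of all genes passed (16 genes). By unadjusted p under 0.05 the members counted 4 of 9 (Smarca4, Ezh2, Smarcb1 and Bmi1), against 10.2% of all genes. Groups that did not overlap were seen in 3 of 9 members, all lower in Sca1-MALT1, against 7.13% of all genes: 2.87% lower and 4.27% higher.

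The promoters of 3 of the 4 members with an unadjusted p under 0.05 are shown, since these carry the differences described next. Smarcb1 is left out of this set because its probe sets disagreed in sign. Each window runs from 250 bases before to 50 bases after a RefSeq start (build GRCm38.p6), and is written 5′ to 3′ in the gene's own direction as RefSeq's table gives it. Capitals mark the E2F motif in Ezh2 and the Sp/KLF motif in Smarca4 and Bmi1.
Ezh2, chr6:47594981-47595280, minus strand: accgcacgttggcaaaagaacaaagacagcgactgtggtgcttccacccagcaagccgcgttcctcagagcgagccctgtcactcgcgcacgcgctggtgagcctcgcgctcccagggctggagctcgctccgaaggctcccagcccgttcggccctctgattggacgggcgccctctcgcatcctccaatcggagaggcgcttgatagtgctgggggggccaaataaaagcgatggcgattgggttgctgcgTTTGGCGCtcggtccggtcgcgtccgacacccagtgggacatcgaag
Smarca4, chr9:21615919-21616218, plus strand: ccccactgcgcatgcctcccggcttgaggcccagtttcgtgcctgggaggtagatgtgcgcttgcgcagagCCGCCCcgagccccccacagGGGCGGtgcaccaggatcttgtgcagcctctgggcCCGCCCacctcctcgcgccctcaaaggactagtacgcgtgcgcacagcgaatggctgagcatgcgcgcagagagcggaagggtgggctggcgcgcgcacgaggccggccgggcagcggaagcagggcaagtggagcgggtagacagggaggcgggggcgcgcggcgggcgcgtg
Bmi1, chr2:18676768-18677067, plus strand: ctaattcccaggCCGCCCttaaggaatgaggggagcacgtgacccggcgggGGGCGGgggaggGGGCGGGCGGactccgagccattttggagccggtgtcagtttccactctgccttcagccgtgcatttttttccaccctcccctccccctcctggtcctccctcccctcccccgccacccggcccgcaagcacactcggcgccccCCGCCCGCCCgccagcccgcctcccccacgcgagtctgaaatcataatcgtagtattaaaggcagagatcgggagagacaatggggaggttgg
The letters searched on both strands were TTTCCCGC, TTTGGCGC, TTTCGCGC and TTTGCCGC for E2F, the factor family of S phase genes, CCAAT for NF-Y and GGGCGG for Sp/KLF. Ezh2 held 1 E2F match, 4 bases past the start, and 3 NF-Y matches but no Sp/KLF match. Smarca4 held 3 Sp/KLF matches, and Bmi1 held 6, of which neighbouring copies overlap; neither held an E2F or NF-Y match. Of all 32851 RefSeq windows of the same length, 2.26% held an E2F form, 37.4% NF-Y and 35.7% Sp/KLF. Members with smaller differences held the same letters: Sp/KLF matched 3 times in Suz12, 2 times in Smarca2, and 1 and 7 times in the 2 Arid1a windows. Smarcb1 held 3 Sp/KLF matches. NF-Y matched 1 time each in Eed and Suz12, and E2F letters stood in the Suz12 window and in 1 of the 2 Arid1a windows. A match describes these letters only.

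Ezh2, the main methyltransferase of PRC2, had 1 probe set (1416544_at). It read 10.24, 10.85, 10.63, 10.55 and 10.27 on the log2 scale in Sca1-MALT1 replicates 1 to 5, against 11.67, 11.09 and 11.68 in WT replicates 1 to 3. The groups did not overlap, and the gap between the highest Sca1-MALT1 array and the lowest WT array was small beside the spread of WT. The log2 difference, Sca1-MALT1 minus WT, was -0.97 (SE 0.20, 95% interval -1.42 to -0.53, limma adjusted p = 0.194). The exact two-sided permutation test over the 56 splits of the arrays gave p = 0.0179, the smallest it can give. It was run for each of the 9 members, for all their probe sets and for the genes of the lists below, and its p-values are unadjusted. By limma's unadjusted p Ezh2 stood at place 89 of 18193 genes. In a bulk sample, fewer cells of a type that carries a transcript and less of it per cell cannot be told apart, which holds for every member.

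Ezh1, the second PRC2 methyltransferase, did not share the direction of Ezh2. Its brightest probe set (1449023_a_at) read 10.80, 10.42, 10.86, 10.26 and 10.99 in Sca1-MALT1, against 10.16, 10.41 and 10.45 in WT. Sca1-MALT1 replicates 1, 3 and 5 lay above all WT arrays, and replicates 2 and 4 lay within the range of WT. The log2 difference was 0.32 (SE 0.19, 95% interval -0.11 to 0.75, limma adjusted p = 0.604). The 3 other probe sets had means of 4.26 to 5.37, below the medians of the arrays (6.40 to 6.48), a range in which background cannot be told from signal. They differed by -0.21 to 0.29. For 1 of them every Sca1-MALT1 array lay above every WT array, as in 3.68% of all probe sets.

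Eed and Suz12, the core subunits without which PRC2 has no activity, lay within the spread of the arrays by their brightest probe sets. Eed (1448653_at) read 11.26, 11.37, 11.14, 10.85 and 10.94 in Sca1-MALT1 and 11.33, 11.01 and 11.20 in WT, a log2 difference of -0.07 (SE 0.15, 95% interval -0.42 to 0.27, limma adjusted p = 0.910). Its second probe set averaged 4.36 over the arrays, below the array medians, and differed by -0.27. Suz12 (1420021_s_at) read 10.93, 10.95, 11.27, 10.78 and 10.27 in Sca1-MALT1 and 10.98, 10.85 and 11.12 in WT, a log2 difference of -0.14 (SE 0.21, 95% interval -0.62 to 0.34, limma adjusted p = 0.862). This probe set is of the type marked with an s, whose probes can match several transcripts. Sca1-MALT1 replicate 5 was the lowest array for this probe set, and without that replicate the difference was 0.0009.

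The 6 Suz12 probe sets differed by -0.55 to 0.01, 5 of them lower in Sca1-MALT1 and 1 near 0. The lowest was a dim probe set (1420022_s_at), at 6.17, 6.19, 6.49, 6.46 and 6.02 in Sca1-MALT1 and 6.89, 6.64 and 6.91 in WT. Its groups did not overlap, as in 3.15% of all probe sets in the lower direction, and it did not pass over all 45037 probe sets (difference -0.55, SE 0.14, limma adjusted p = 0.341). Its group mean in Sca1-MALT1, 6.27, lay below the array medians. The next brightest after the main one averaged 9.54 and differed by 0.01 (SE 0.32).

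Bmi1, the PRC1 subunit known for repressing the cell cycle inhibitor locus Cdkn2a, was the member with the largest positive difference. Its brightest probe set (1417493_at) read 12.19, 11.62, 12.06, 10.93 and 12.00 in Sca1-MALT1, against 11.21, 11.20 and 10.88 in WT. Sca1-MALT1 replicates 1, 2, 3 and 5 lay above all WT arrays, and replicate 4 lay among them. The log2 difference was 0.66 (SE 0.28, 95% interval 0.02 to 1.31, limma adjusted p = 0.477, exact permutation p = 0.107). The second probe set agreed in sign, at 10.21, 9.89, 10.10, 9.64 and 10.43 in Sca1-MALT1 and 9.55, 10.02 and 9.28 in WT, a difference of 0.44 (SE 0.22, limma adjusted p = 0.586). Replicate 4 was the lowest Sca1-MALT1 array for both, and without it the difference of the brightest was 0.87 with a limma adjusted p of 0.118.

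**Figure D1:**
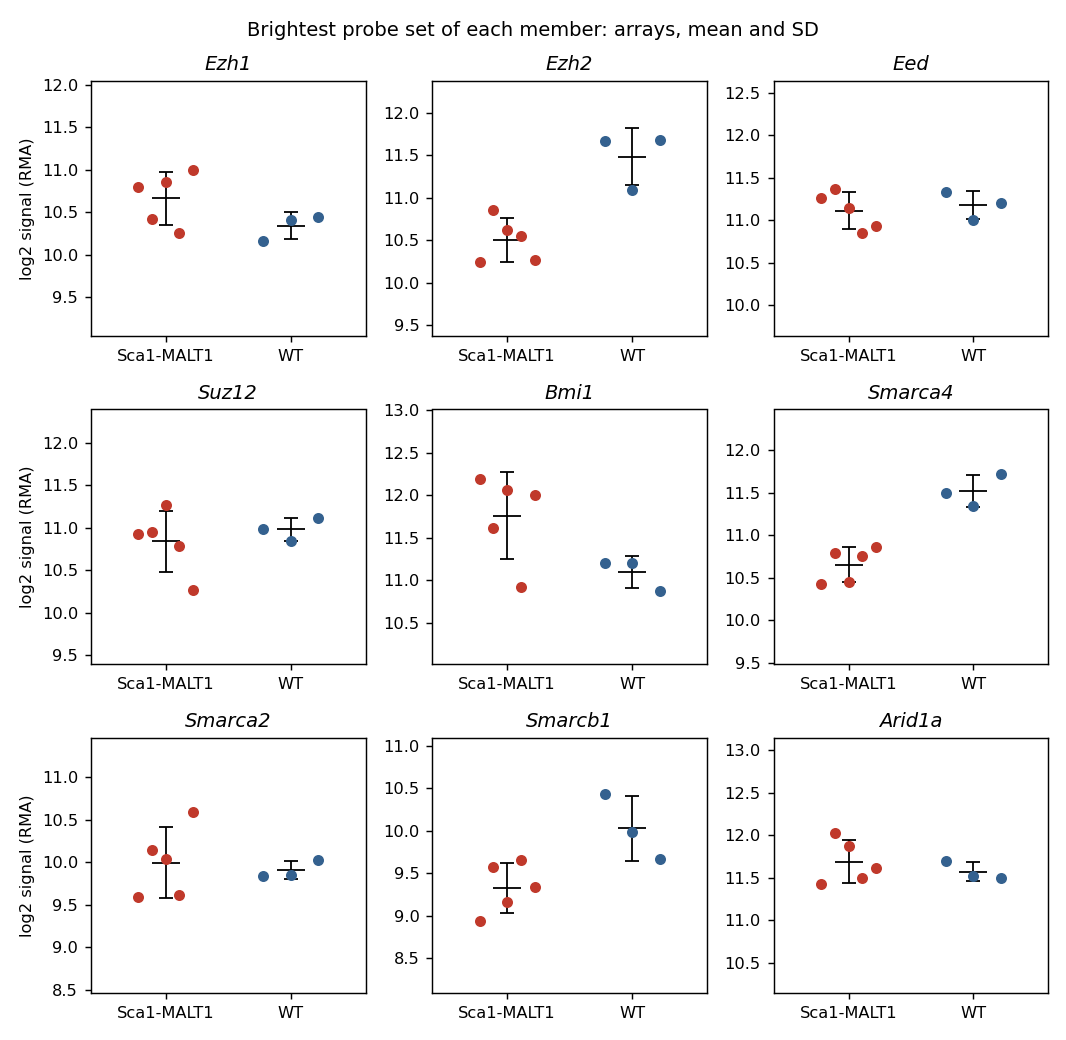
The log2 signal of each member's brightest probe set is plotted for each array, with Sca1-MALT1 (n = 5) left and WT (n = 3) right; bars are mean and SD, and each panel spans the same number of log2 units. Ezh2, Smarca4 and Smarcb1 show 5 Sca1-MALT1 arrays below all 3 WT arrays, while 4 of 5 arrays lie above WT for Bmi1.

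Smarca4, the motor subunit that many progenitor cells require, had the lowest unadjusted p of the members, place 50 of 18193 genes. Its brightest probe set (1426804_at) read 10.42, 10.79, 10.45, 10.76 and 10.86 in Sca1-MALT1, against 11.49, 11.34 and 11.72 in WT. The groups were clearly apart, with no Sca1-MALT1 array near the WT range. The log2 difference was -0.86 (SE 0.15, 95% interval -1.20 to -0.52, limma adjusted p = 0.118), and the exact permutation p was 0.0179, the smallest possible. The second probe set read 8.87, 9.76, 9.27, 10.09 and 8.15 in Sca1-MALT1 and 10.55, 10.50 and 10.96 in WT. It also separated the groups, as did 3.15% of all probe sets in the lower direction. Its difference was -1.44 (SE 0.41, limma adjusted p = 0.373), with a wider spread in Sca1-MALT1 (SD 0.76) than in WT (SD 0.25). Replicate 5 was the highest Sca1-MALT1 array on the brightest probe set and the lowest on the second one.

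Smarca2, the alternative motor, gave 2 probe sets of opposite sign. The brightest (1430526_a_at) read 9.59, 10.15, 10.04, 9.61 and 10.59 in Sca1-MALT1 and 9.84, 9.85 and 10.02 in WT, with overlapping groups. Its log2 difference was 0.09 (SE 0.23, 95% interval -0.43 to 0.62, limma adjusted p = 0.926). The dimmer one (1452333_at) read 7.00, 7.61, 6.81, 7.53 and 6.48 in Sca1-MALT1, against 8.30, 7.87 and 7.76 in WT, a difference of -0.89 (SE 0.28, limma adjusted p = 0.407) with groups that did not overlap. Groups apart in this direction were seen in 3.15% of all probe sets. Replicate 5 was again the highest array on one probe set and the lowest on the other. With the mean of both probe sets the gene differed by -0.40 (limma adjusted p = 0.403), so its direction rests on the probe set taken.

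Smarcb1, a core subunit lost in rhabdoid tumours, also had probe sets that disagreed. The brightest (1416045_a_at) read 8.93, 9.57, 9.16, 9.65 and 9.33 in Sca1-MALT1, against 10.43, 9.98 and 9.67 in WT. The groups did not overlap, though the highest Sca1-MALT1 array and the lowest WT array were nearly equal. The log2 difference was -0.70 (SE 0.22, 95% interval -1.20 to -0.20, limma adjusted p = 0.360, exact permutation p = 0.0357). A second bright probe set differed by -0.42 (SE 0.21, limma adjusted p = 0.586) with overlapping groups. It is of the type that the array maker marks with an x, whose probes may also bind other transcripts.

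The dimmest Smarcb1 probe set (1456938_at) went against both others. It read 7.55, 6.69, 6.43, 7.55 and 7.43 in Sca1-MALT1 and 5.92, 6.05 and 5.88 in WT, a difference of 1.19 (SE 0.28, limma adjusted p = 0.317). All Sca1-MALT1 arrays were above all WT arrays, as in 3.68% of all probe sets in the higher direction, and the WT mean of 5.95 lay below the array medians. With the mean of the 3 probe sets the gene differed by 0.02 (limma adjusted p = 0.977). Where in the transcript each probe set lies was not analysed here.

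Arid1a, the DNA-contacting subunit often mutated in human cancers, lay within the spread of the arrays. Its brightest probe set (1448709_at) read 11.43, 12.02, 11.87, 11.50 and 11.61 in Sca1-MALT1 and 11.70, 11.52 and 11.49 in WT. The log2 difference was 0.12 (SE 0.16, 95% interval -0.25 to 0.48, limma adjusted p = 0.848). The second probe set differed by 0.23 (SE 0.13, limma adjusted p = 0.645), with Sca1-MALT1 replicate 5 the highest array at 8.48.

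Over all 24 probe sets, 15 read lower and 9 higher in Sca1-MALT1. Their median log2 difference was -0.11, against -0.01 over all 45037 probe sets, of which 51.6% were lower. None passed over all probe sets (limma, lowest adjusted p 0.159), where 0.06% of all probe sets passed. By unadjusted p under 0.05 they counted 9 of 24, against 9.47% of all probe sets. Groups that did not overlap were seen in 6 lower and 2 higher probe sets, against 3.15% and 3.68% of all probe sets (6.83% in either direction). Probe sets of 1 gene share its transcript and are not independent of each other. In 5 of the 24 the mean over the arrays was below the array medians.

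**Figure D2:**
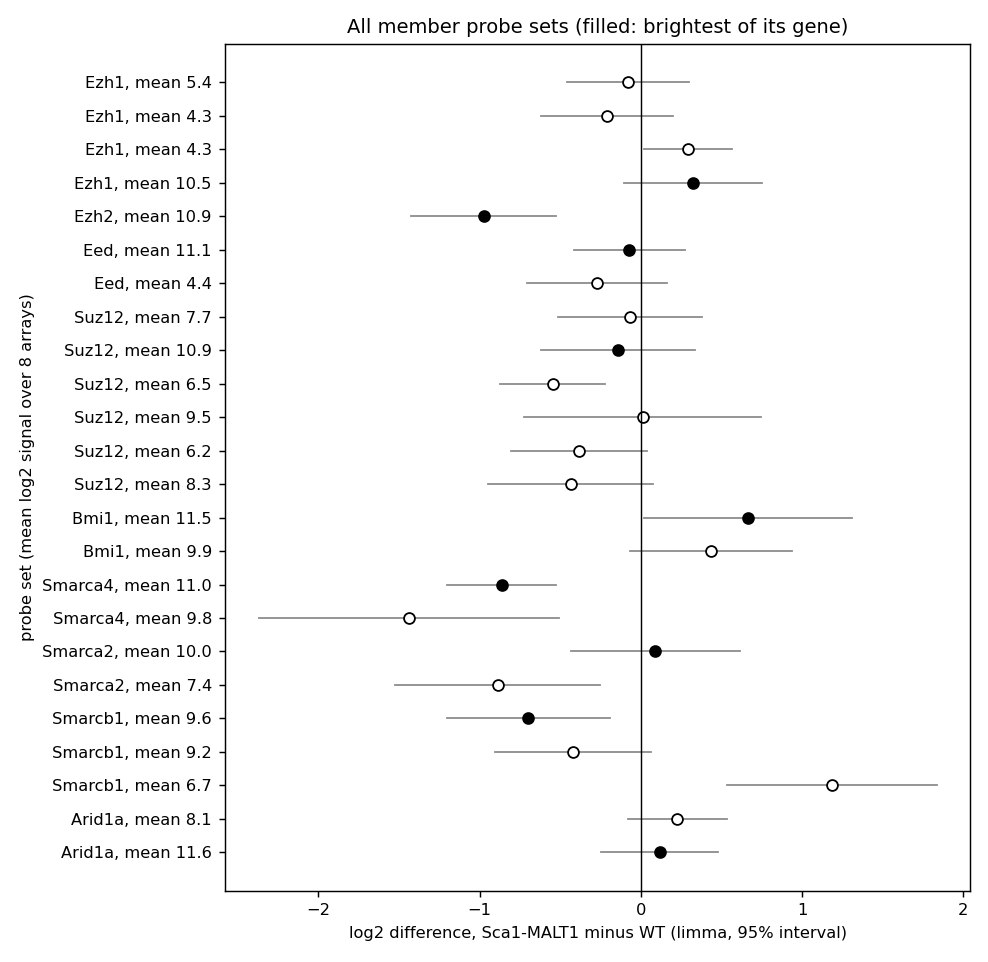
Each of the 24 member probe sets is shown by its log2 difference, Sca1-MALT1 minus WT, with the 95% interval of the limma fit over all probe sets; the label gives the gene and the mean log2 signal, and filled points are the brightest probe set of a gene. Both Smarca4 probe sets and the Ezh2 probe set lie left of 0, both Bmi1 probe sets right of it, and the dimmest Smarcb1 probe set lies opposite to the other two.

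In both paralogue pairs the difference within an array separated the groups when each gene was read by its brightest probe set. The log2 signal of Ezh1 minus that of Ezh2 within an array was 0.56, -0.44, 0.23, -0.29 and 0.73 in Sca1-MALT1, against -1.51, -0.68 and -1.23 in WT. The groups did not overlap, and the group difference was 1.30. The log2 signal of Smarca2 minus that of Smarca4, by their brightest probe sets, was -0.83, -0.64, -0.41, -1.15 and -0.27 in Sca1-MALT1 and -1.66, -1.49 and -1.70 in WT. These groups did not overlap either, with a group difference of 0.95, or 0.75 with the mean of each gene's probe sets. The dimmer Smarca2 probe set differed by -0.89 between the groups, about as much as the brightest of Smarca4 (-0.86). The second Smarca4 probe set differed by -1.44. Whether the differences of this pair are unequal, and by how much, therefore rests on the probe sets taken of both genes. Since probe sets bind with different strength, the values show unequal differences of these probe sets between the groups and not which paralogue is more abundant. No test was run on them, because they combine the differences of Ezh1, Ezh2, Smarca2 and Smarca4 given above.

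**Figure D3:**
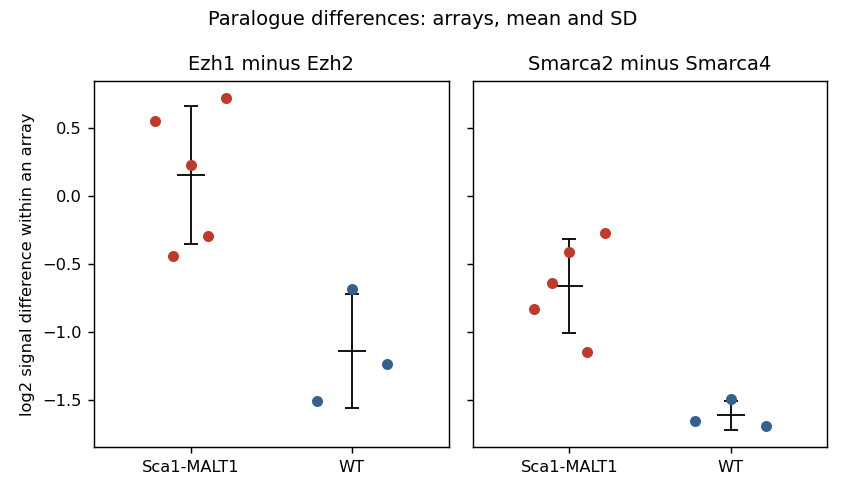
The difference in log2 signal within an array is plotted for Ezh1 minus Ezh2 and for Smarca2 minus Smarca4, with Sca1-MALT1 (n = 5) left and WT (n = 3) right; bars are mean and SD. By the brightest probe set of each gene, all 5 Sca1-MALT1 arrays lie above all 3 WT arrays in both pairs, with group differences of 1.30 and 0.95.

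The remaining subunits of the complexes were read from lists of known genes, and none of their genes passed over all genes by limma. Of 8 other PRC2 genes, 4 read higher and 4 lower. Their median log2 difference was -0.05 beside 0.004 over all genes, and 2 of 8 had an unadjusted p under 0.05, where 10.2% of all genes did. Phf1, which guides PRC2 to marked chromatin, read 8.32, 7.91, 8.41, 8.10 and 7.52 in Sca1-MALT1 and 7.04, 7.34 and 7.70 in WT, a difference of 0.69 (SE 0.23, adjusted p = 0.377). Rbbp7, a histone-binding subunit, read 13.26 to 13.49 in Sca1-MALT1 and 13.51 to 13.71 in WT, a difference of -0.28 (SE 0.10, adjusted p = 0.417), with groups that did not overlap. Groups apart in this direction were seen in 2.87% of all genes. Mtf2, another recruiting subunit, differed by -0.31, and Aebp2, a cofactor of PRC2, by 0.18 with probe sets of both signs.

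Of 19 measured PRC1 genes other than Bmi1, 10 were lower and 9 higher. Their median was -0.07, and 2 of 19 stood at an unadjusted p under 0.05, a share close to the 10.2% of all genes. Cbx7, a reader of the PRC2 mark, read 10.25, 9.24, 9.95, 8.53 and 9.47 in Sca1-MALT1 and 7.70, 8.88 and 8.39 in WT. Its difference of 1.17 (SE 0.41, adjusted p = 0.383) was the largest positive one among these genes, and Sca1-MALT1 replicate 4 was its lowest array in that group, as it was for Bmi1. Of the 3 Cbx7 probe sets 2 shared this sign. Cbx2, another reader of that mark, differed by -0.67 (SE 0.31, adjusted p = 0.513), with 1 of 2 probe sets on each side. Kdm2b, which brings a form of PRC1 to CpG islands, differed by -0.68 (SE 0.32, adjusted p = 0.511), and Phc1, a polymerising subunit, by -0.38 (SE 0.16, adjusted p = 0.476).

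Of 24 other SWI/SNF genes, 17 were lower and 7 higher in Sca1-MALT1, beside 49.3% lower over all genes. Their median difference was -0.11. The mean signal of the list was 9.16 to 9.34 in Sca1-MALT1 and 9.38 to 9.48 in WT, so the groups did not overlap, by a small margin. At an unadjusted p under 0.05 there were 2 of 24 genes, both lower, a share below the 10.2% of all genes. The same 2 genes, Bcl7a and Smarcd2, were those whose groups did not overlap, against 7.13% of all genes. Bcl7a, a small accessory subunit first found in B cell lymphoma, read 7.42, 8.47, 8.09, 7.95 and 7.80 in Sca1-MALT1 and 9.31, 8.70 and 9.78 in WT. It had the lowest adjusted p of the listed subunits (difference -1.32, SE 0.29, adjusted p = 0.219), with 3 of its 5 probe sets of this sign. Smarcd2, a subunit needed for granulocyte development, differed by -0.35 (SE 0.12, adjusted p = 0.373) with groups that did not overlap. Brd7, a bromodomain subunit, differed by -0.49 (SE 0.22, adjusted p = 0.497), and Pbrm1, the large bromodomain subunit of the same form of the complex, by 0.41 (SE 0.19, adjusted p = 0.503) with 1 of 3 probe sets of that sign.

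Enzymes and factors that oppose Polycomb were split evenly, 6 higher and 6 lower of 12 measured, with a median of -0.04. Asxl1, a partner of the enzyme that removes the PRC1 mark, differed by -0.35 (SE 0.15, adjusted p = 0.477), and its relative Asxl2 by 0.32 (SE 0.29). Kmt2b, a methyltransferase of active promoters, differed by 0.33 (SE 0.14, adjusted p = 0.483), and Usp16, which removes ubiquitin from histones, by 0.16 (SE 0.14). Of the CDK inhibitor genes that Polycomb is known to silence, all 4 were lower, beside 49.3% of all genes. None had an unadjusted p under 0.05, where 10.2% of all genes did. Cdkn2a, the classical target of Bmi1, averaged 4.55 ± 0.23 (SD, n = 5) in Sca1-MALT1 and 4.61 ± 0.36 (n = 3) in WT, below the array medians in both. Cdkn2b, its neighbour, differed by -0.20, Cdkn1a by -0.36 and Cdkn1c by -0.45, with limma adjusted p-values of 0.721 to 0.860.

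**Figure D4:**
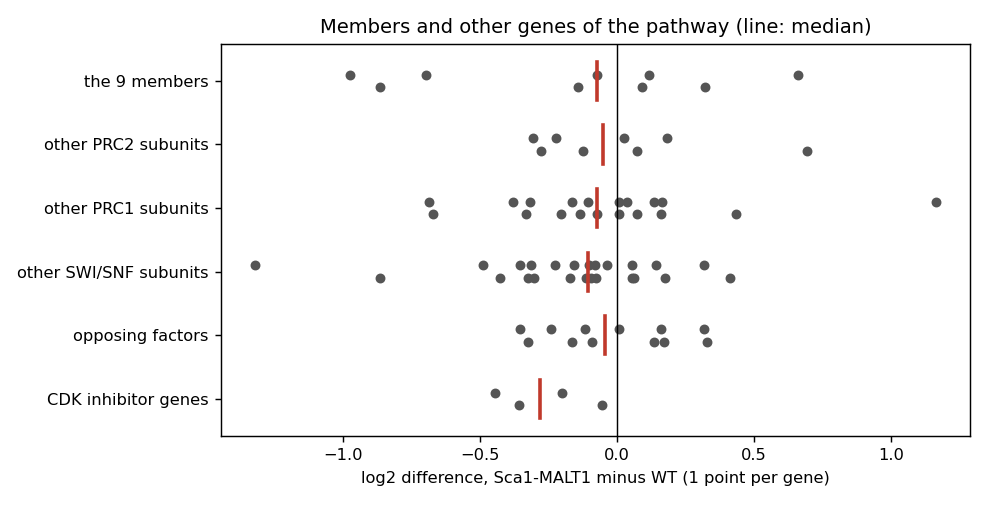
Each point is 1 gene's log2 difference, Sca1-MALT1 minus WT, for the 9 members and for lists of other PRC2, PRC1 and SWI/SNF subunits, opposing factors and CDK inhibitor genes; red lines are list medians. Medians lie between -0.28 and -0.04, and Ezh2, Smarca4 and Smarcb1 stand apart on the lower side of the members.

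Markers of several cell types moved with the groups beside these values. The 10 measured genes of pro-B and pre-B cells averaged 7.29 to 8.05 in Sca1-MALT1 and 9.91 to 10.72 in WT. Of these, 9 were lower and 1 higher, and 4, all lower, passed the threshold, where 0.0879% of all genes did. The lowest p-values were those of Igll1 (-3.92), with 1 of its 2 probe sets of this sign, and Vpreb1 (-5.55). The 10 plasma cell genes averaged 10.78 to 12.42 in Sca1-MALT1 and 8.94 to 9.16 in WT, with all 10 higher. Of these, 1 passed the threshold, Jchain (2.58), beside the same 0.0879% of all genes, and Xbp1 differed by 1.32. The 8 erythroid genes averaged 10.66 to 11.83 in Sca1-MALT1 and 10.17 to 10.55 in WT, all 8 higher, 3 at an unadjusted p under 0.05 (10.2% of all genes) and none past the threshold, with Car1 at 2.45 and Gata1 at 0.94. The part of these cell types in the differences of Ezh2, Smarca4, Smarcb1 and Bmi1 was not tested.

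Other lists overlapped between the groups. Stem and multipotent progenitor genes averaged 7.86 to 10.34 in Sca1-MALT1 and 9.36 to 10.79 in WT, with 9 of 11 genes lower (Flt3 at -1.59, Hlf at -1.33). T cell genes averaged 8.48 to 10.15 in Sca1-MALT1 and 8.71 to 8.96 in WT, with all 9 genes higher (Zap70 at 0.80, Cd28 at 1.69), and replicate 4, the lowest Sca1-MALT1 array for Bmi1, was also the lowest here. That array stood at the end of its group in other lists too. It was the lowest for pro-B and pre-B genes (7.29) and the highest for neutrophil (13.86), S phase (11.06) and G2 and mitosis genes (10.78). Neutrophil genes averaged 10.39 to 13.86 in Sca1-MALT1 and 12.11 to 12.88 in WT, with 9 of 10 lower (S100a9 at -1.30, S100a8 at -0.81). None of the genes of these 3 lists passed over all genes by limma, while 4 of 11 stem, 4 of 9 T cell and 0 of 10 neutrophil genes had an unadjusted p under 0.05, beside 10.2% of all genes. Their part in the members' differences was not tested.

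Lists of cell division genes, with which Ezh2 is known to go, overlapped between the groups. The 15 S phase genes averaged 10.05, 10.83, 10.53, 11.06 and 10.61 in Sca1-MALT1 and 11.34, 10.62 and 10.64 in WT, with 13 genes lower, a median log2 difference of -0.24 and none at an unadjusted p under 0.05, where 10.2% of all genes were. Uhrf1, a replication-linked methylation factor, differed by -1.03 (SE 0.45, adjusted p = 0.491) and Gins2, a part of the replicative helicase, by -0.70 (SE 0.42). The 15 genes of G2 and mitosis averaged 9.48, 9.18, 10.40, 10.78 and 9.59 in Sca1-MALT1 and 9.97, 9.47 and 9.98 in WT, with 10 genes higher and 5 lower and a median of 0.16. Kif11, a spindle motor, differed by 0.64 and Bub1b, a checkpoint kinase, by -0.47. Replicate 1 was the lowest Sca1-MALT1 array for both Ezh2 and the S phase genes, whereas replicate 4, the highest Sca1-MALT1 array of both cell cycle lists, lay in the middle of its group for Ezh2. The part of cell division in the difference of Ezh2 was not tested.

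**Figure D5:**
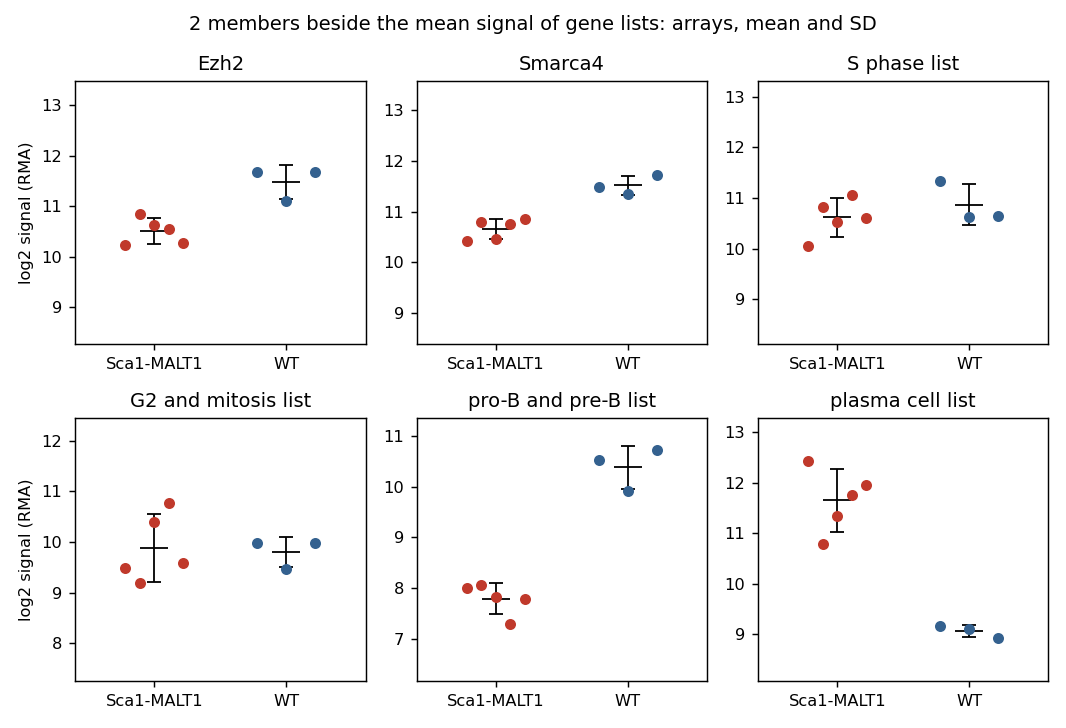
Log2 signal of Ezh2 and Smarca4 is plotted beside the mean log2 signal of the S phase, G2 and mitosis, pro-B and pre-B, and plasma cell lists, with Sca1-MALT1 (n = 5) left and WT (n = 3) right; bars are mean and SD and all panels span the same number of log2 units. The S phase and mitosis lists overlap between the groups, while Ezh2, Smarca4 and the pro-B list are lower, and the plasma cell list is higher, in all Sca1-MALT1 arrays.

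The genes whose pattern over the 8 arrays was most like each member's were taken by the smallest root mean square distance between values centred on each gene's own mean. For Ezh2 they were 2900093K20Rik at a distance of 0.17 log2 units and Zbtb18, a zinc finger repressor, at 0.18, where Ezh2's own spread by the same measure was 0.53. For Smarca4 they were Brd3, a bromodomain reader of acetylated histones, at 0.11 and Hes6, a relative of the Notch effectors, at 0.12, beside an own spread of 0.45. The nearest to Bmi1 were Tef at 0.13 and 1700007L15Rik at 0.15, and those to Smarcb1 were Nsmce1 at 0.11 and Cby1 at 0.13. Brd3 differed by -0.71 and Hes6 by -0.77 between the groups, and Tef by 0.58. The nearest genes of the flatter members were Znrd1as and Mbp for Ezh1, Casp14 and Prr9 for Eed, Tcf20 and Ywhah for Suz12, Edar and Setd1b for Smarca2, and Nktr and Ranbp2 for Arid1a, at distances of 0.05 to 0.12. With 8 arrays and 18193 genes such likeness is a description.

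For the arrays as a whole, correlations between them over 18193 genes ran between 0.956 and 0.983. Malt1 read 9.83 ± 0.31 (SD, n = 5) in Sca1-MALT1 and 9.34 ± 0.38 (n = 3) in WT (limma adjusted p = 0.507), which checks the labels neither way because which species or part of MALT1 the transgene carries is not given. Kit, a receptor of progenitor cells, averaged 9.52 in Sca1-MALT1 and 10.11 in WT. Cd34, also of the stem and progenitor list, differed more, at 8.48 in Sca1-MALT1 and 10.63 in WT (limma adjusted p = 0.458), with overlapping groups. Genes of mature cells were bright in both groups, with S100a8 at 13.93 in Sca1-MALT1 and 14.74 in WT. Ighm averaged 15.34 in Sca1-MALT1 and 14.58 in WT. The gap in log2 signal between the 3' and 5' control probe sets of Gapdh, which grows as RNA is degraded or shortened in amplification, was 2.25 to 3.20 in Sca1-MALT1 and 2.70 to 2.92 in WT, and that of beta-actin was 1.25 to 2.49 in Sca1-MALT1 and 1.45 to 2.14 in WT. Replicate 5 of Sca1-MALT1 had the highest value of the 8 arrays on both controls, and it was also the array on which the 2 probe sets of Smarca4, and those of Smarca2, lay furthest apart. The part of RNA integrity in these values was not tested.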

How the data were processed

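The authors deposited a table of log2 values, 1 for each probe set on each array, which they made with RMA (robust multi-array average: background correction, quantile normalization, summary per probe set), per the submitters' processing notes; neither its version nor the probe set definitions are stated there. That the scale is log2 follows from the range of the values, which ran from 2.73 to 15.41. They were used as deposited, with no filter on dim probe sets, since RMA gives no detection call. Of 45101 probe sets, 64 controls were left out; 34945 of the rest had 1 gene symbol, 932 several and 9160 none. Current symbols were looked up by Entrez identifier in a RefSeq table (GRCm38.p6), and each of 18193 genes took its brightest probe set.

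Sca1-MALT1 (n = 5) was compared with WT (n = 3) with limma 3.58.1 (lmFit, eBayes) in R 4.3.3, genotype being the only term, once over genes and once over 45037 probe sets. All tests are two-sided, and limma's p-values were adjusted by Benjamini-Hochberg over the whole table; intervals are at 95%. Single values had an exact permutation test over 56 splits. The fit was tested on simulated data. Members and gene lists were chosen with earlier results of these data known, so no list was tested. Named list genes are the 4 with the lowest unadjusted p (2 for cell type and cell cycle lists), and 2 nearest genes per member. Whether the samples are separate animals is not in the labels, so the p-values rest on a spread between samples that may be technical, and the number of arrays limits the precision. The alternatives were quantile normalization, median centring, a filter on dim genes, the mean of probe sets, another variance model, array weights, a threshold of 0.1, the replicate number as a block, and fits without 1 array.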

Additional observations from a re-analysis of the deposited data

Results flagged for a closer look

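The mean log2 signal of the T cell list in Sca1-MALT1 replicate 4 was 8.48, far below the next lowest Sca1-MALT1 array at 9.75; the gap was 0.766 of the group's range, above Dixon's critical value of 0.71 for 5 samples. It was the only one of 59 sets of 5 Sca1-MALT1 values tested that stood out, where chance would flag about 1 in 20. No member probe set stood out in this way.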

How the results depend on the processing

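No member gene and no member probe set passed under any alternative run at the threshold of 0.05, or at 0.1 with the other settings unaltered. Ezh2 stayed lower in all 15 alternative fits (-1.17 to -0.84, limma adjusted p 0.117 to 0.457), as did Smarca4 (-1.15 to -0.76, 0.0892 to 0.312), and Bmi1 stayed higher (0.55 to 0.87, 0.118 to 0.703). Differences of some other members turned sign. The mean of probe sets gave -0.40 for Smarca2 and 0.023 for Smarcb1. Array quality weights gave 0.018 for Eed at gene level, 0.0049 for its bright probe set and 0.038 for Suz12 probe set 1420020_at. The replicate block gave 0.075 for Eed and 0.068 for Suz12, at gene level and for their brightest probe sets, and 0.15 for Suz12 probe set 1420020_at. Sca1-MALT1 replicates 4 and 5 have no WT array of the same number, so the block compares only replicates 1 to 3 of both groups. With 1 array left out, the range was -0.16 to 0.0055 for Eed, -0.25 to 0.00092 for Suz12, -0.058 to 0.19 for Smarca2, -0.19 to 0.0093 for Ezh1 probe set 1418290_a_at, -0.15 to 0.026 for Suz12 probe set 1420020_at and -0.15 to 0.23 for Suz12 probe set 1427253_s_at. The cause of the other turns of sign was not tested.

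Over all genes 16 passed, against 38 at a threshold of 0.1, 28 with array quality weights and 0 with the replicate block (2034 genes at an unadjusted p under 0.05). Leaving out 1 array gave 8 to 38 genes, with 10, 38, 8 and 9 without Sca1-MALT1 replicates 1, 2, 3 and 5. Same-numbered arrays did not deviate together (r = -0.22, -0.04 and 0.006 over genes), so the block rests on a shared number only. The block also drops Sca1-MALT1 replicates 4 and 5 from the group difference, and its added terms leave less information on the spread. The median difference of other PRC2 genes was -0.13 with the mean of probe sets and -0.13 to -0.012 with 1 array left out, that of other SWI/SNF genes -0.16 among genes above the median signal, where fewer genes are tested, and that of opposing factors 0.15 with the replicate block. The paralogue differences kept their sign in the 11 alternatives run for each (1.06 to 1.53 and 0.75 to 1.08). None of these took the dimmer Smarca2 probe set alone.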
